A study of Mus musculus with 12 samples.

Results

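The NRF2 and glutathione antioxidant genes are a list of 38 genes, taken by symbol from the 56791 gene names of the deposited table, and all 38 passed the filter on low values that left 17540 genes for testing. They were followed in hippocampal astrocytes of adult naive male mice, sorted by fluorescence on the astrocyte surface antigen ACSA-2 and sequenced as 12 low-input RNA libraries. The group labelled Ctrl is Tnfrsf1bfl/fl (units A1, A2 and A8), in which the gene of the TNF receptor TNFR2 is flanked by loxP sites and left intact. The group labelled cKO is GfapcreERT2:Tnfrsf1bfl/fl (units A4, A9 and A10), which carries the same floxed alleles and a Cre recombinase under the Gfap promoter that acts only after tamoxifen, whose dosing is not given in the sources used here. Each A number has an S1 and an S2 library. The 2 were averaged into 1 unit, so n is 3 units for each genotype, and nothing in the sources used here says that the units are separate animals. The p-values below therefore set a genotype difference against the spread between these units, which limma draws toward that of other genes. The comparison asks whether antioxidant transcripts of astrocytes differed where astroglial TNFR2 was to be ablated.

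NRF2, encoded by Nfe2l2, is a transcription factor that KEAP1 holds in the cytoplasm and marks for degradation until oxidants or electrophiles modify KEAP1. Freed NRF2 pairs with a small MAF protein on antioxidant response elements and raises genes for glutathione synthesis, conjugation, quinone and heme handling, iron storage, thioredoxin recycling and NADPH supply. Astrocytes are known as the main site of this response in the brain, and they export glutathione whose parts neurons use to make their own.

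Tnfrsf1b itself did not check the labels. It was listed at 0 in 9 of 12 libraries, and its highest unit was A4 at 0.141 FPKM (fragment counts corrected for gene length and library size), a unit labelled cKO. The groups below are thus the units as labelled, and the results that the text turns on are also given without A4. Recovered depth was 17311872 to 35323322 reads per library. All 12 astrocyte markers were detected, with a summed level of 4790 to 5816 FPKM in Ctrl and 5419 to 6283 FPKM in cKO. Of these 12, 10 were higher and 2 lower in cKO, 0 of them with an unadjusted limma p under 0.05. All 12 oligodendrocyte markers were lower in cKO with an unadjusted limma p under 0.05, and their summed level was 1096 to 2354 FPKM in Ctrl and 313 to 753 FPKM in cKO, without overlap. Of 5 oligodendrocyte precursor markers, 4 were tested and all 4 were lower in cKO, 2 of them with an unadjusted p under 0.05, and the summed level was 127.1 to 164.5 FPKM in Ctrl and 76.6 to 105.6 FPKM in cKO, again without overlap. The summed level of 7 microglia markers was 14.2 to 19.1 FPKM in Ctrl and 20.7 to 36.4 FPKM in cKO, while that of 5 ependymal markers (55.3 to 230.2 against 47.8 to 154.1 FPKM) and 6 endothelial markers (4.78 to 44.8 against 4.17 to 31.9 FPKM) overlapped. In bulk RNA, fewer cells of a type and less RNA per cell cannot be told apart.

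No member passed the test between genotypes. With limma on log2(FPKM + 1), two-sided and with Benjamini-Hochberg adjustment over all 17540 genes, 0 of 38 members had an adjusted p under 0.05, and the share among all genes was 0%. An unadjusted limma p under 0.05 was found for 2 of 38 members (5.26%), against 7.69% of all genes, and both were ferritin chains that were lower in cKO, a direction and threshold that 4.71% of all genes met. The 3 cKO units lay entirely on one side of the 3 Ctrl units in 3 of 38 members (7.89%), against 13.0% of all genes. These shares are near or under those of all genes. The count of 2 became 6 without A8 (15.8%, against 13.9% of all genes at the same setting) and 4 without A10 (10.5%, against 6.35%). It became 1 without A2 (2.63%, against 6.86%) and 1 without A4 (against 5.26%). In the members 19 differences were positive and 19 negative, with a median of 0.00 on the log2 scale, where the median over all genes was -0.01. Upper quartile scaling gave 25 positive and 13 negative differences and quantile normalization 24 and 14.

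The intervals show how large a difference these units leave room for. The limits of each 95% interval were turned back from log2(FPKM + 1) to FPKM at the Ctrl mean, since the added 1 understates the fold of low genes. In FPKM the interval lay within 2-fold in either direction for 30 of 38 members (78.9%), against 43.0% of all genes. The members had a higher median level than all genes (14.9 against 4.37 FPKM), so the 2 shares do not compare genes of like level. The 8 members whose interval passed 2-fold were Fth1, Hmox2 and Gstp1, which reached it on the lower side, Hmox1, Nqo1, Abcc1 and Glrx, which reached it on the higher side, and Txnrd2, which reached it on both. All but Fth1, Hmox2 and Gstp1 had means under 5 FPKM.

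**Figure D1:**
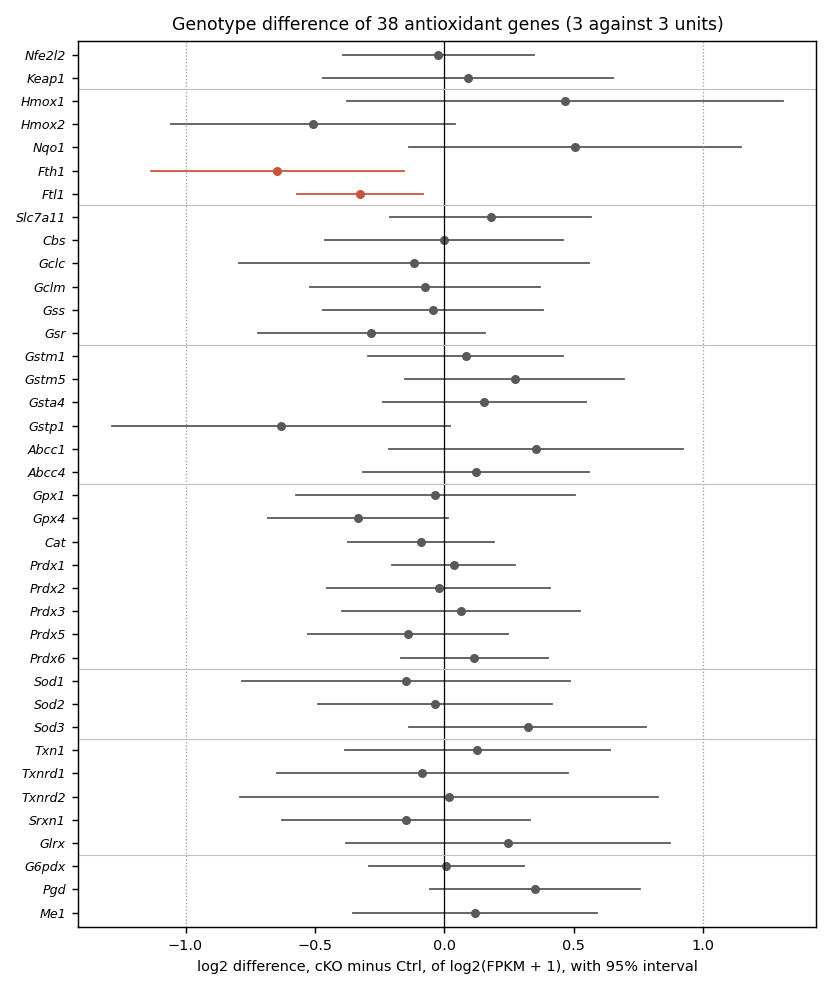
Difference of each member between genotypes on the log2(FPKM + 1) scale, cKO minus Ctrl, as a point with its 95% interval from limma (3 units each). Members are ordered by role, dotted lines mark 1 unit of that scale, and the 2 members in red, Fth1 and Ftl1, have an unadjusted p under 0.05. On that scale 33 of 38 intervals lie between the dotted lines.

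The members were abundant transcripts in these cells. Their median level was 14.9 FPKM, against 4.37 FPKM over all genes tested, and 30 of 38 lay above the median gene. The upper 25% of genes held 24 members and the upper 5% held 7. Gstm1 was the highest member at a mean of 422.8 FPKM, followed by Fth1 at 226.7, Gstm5 at 194.6, Prdx6 at 114.1 and Prdx1 at 63.9 FPKM. Txnrd2 was the lowest at 1.62 FPKM, below Glrx at 2.11, Abcc1 at 2.44 and Hmox1 at 2.56 FPKM. Fth1 and Gstm5 were neighbours in this order whose units overlapped, at 154.9 to 327.6 and 144.5 to 235.7 FPKM. Every member was detected in all 12 libraries, and the fewest reads behind a value were 41, for Hmox1. Together the members took 0.451% to 0.492% of the reads of a Ctrl unit and 0.443% to 0.450% of those of a cKO unit. The gap between A8 and A9 was narrow. Such a share is weighted to long and abundant transcripts, among them Fth1, at a mean of 277.9 FPKM in Ctrl and 175.6 FPKM in cKO. The part of Fth1 in the gap was not tested. The summed FPKM of the members overlapped, at 1462 to 1612 per Ctrl library and 1456 to 1519 per cKO library.

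**Figure D2:**
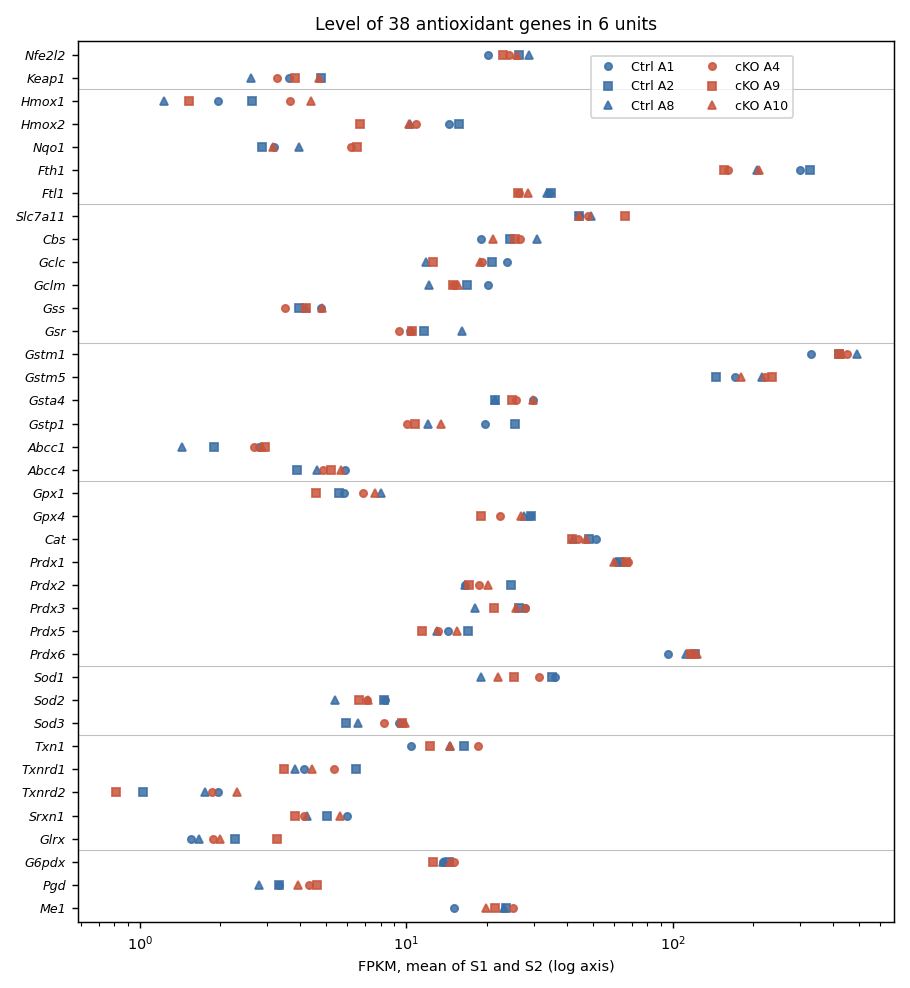
Level of the 38 members in FPKM on a log axis, each point being the mean of the S1 and S2 library of 1 unit (blue Ctrl, red cKO), ordered by role. Levels run from under 1 FPKM for Txnrd2 in A9 to 492 FPKM for Gstm1 in A8, and red and blue points of most members are interleaved.

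Between units of a genotype the members had a median standard deviation of 0.24 on the log2(FPKM + 1) scale, against 0.32 over all genes tested. The smallest was that of Ftl1 (0.05) and the largest that of Hmox1 (0.48). S1 and S2 of an A number differed by a median of 0.05 in the members and 0.08 in all genes tested, and the largest such difference was 0.55, for Gstp1 in A8.

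The antioxidant response element is the sequence by which NRF2 finds its targets, so the 300-base windows from 250 bases before to 50 bases after RefSeq gene starts (GRCm38.p6) were searched for its core, TGACNNNGC, on both strands. A window was given for 31 members, and 11 of them held the core (35.5%), against 14.0% of all 27025 symbols. They were Nfe2l2, Srxn1, Gstm5, Gclm, Prdx1, Pgd, Me1, Txnrd1, Abcc4, Sod1 and G6pdx. A symbol can have several windows, and the 31 members had 44. Counted by window, 12 of 44 held the core (27.3%), against 12.4% of all 32851 windows. These shares were not tested. The form TGACTCAGC, which also contains the AP-1 site TGACTCA, was found in Prdx1 and Me1 and in 0.503% of all symbols. The stretches below are shown because they hold this shared element in the factor's own gene, in the only member above Ctrl in every cKO unit (Pgd), and in 1 gene each of synthesis, conjugation, peroxide removal, thioredoxin recycling and NADPH supply. The starts are those of RefSeq transcripts, and distances are counted from them. Those used for Gstm5, Prdx1, Me1, Pgd and Txnrd1 lie inside the genes as GENCODE draws them, downstream of the gene starts given by that annotation. The stretches of Me1, Pgd and Txnrd1 lie wholly inside these genes. Only the starts of Pgd and Txnrd1, which lie farthest inside, are marked as internal. Each is read 5′ to 3′ on the gene's strand, with the core, on either strand, in capitals.
Nfe2l2, chr2:75704879-75704913 (minus strand), core starting 240 bases before the start: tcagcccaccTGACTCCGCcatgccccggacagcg
Gclm, chr3:122245407-122245447 (plus strand), 134 bases before the start: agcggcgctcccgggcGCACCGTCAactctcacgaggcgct
Gstm5, chr3:107895796-107895836 (plus strand), 42 bases before the start: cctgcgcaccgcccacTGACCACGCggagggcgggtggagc
Prdx1, chr4:116685450-116685490 (plus strand), 133 bases before the start: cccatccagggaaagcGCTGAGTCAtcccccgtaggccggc
Txnrd1, chr10:82859098-82859138 (plus strand), 92 bases before an internal start: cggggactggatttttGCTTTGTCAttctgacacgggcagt
Me1, chr9:86695912-86695936 (minus strand), 6 bases before the start: tcggccgatgccgccgTGACTCAGC
Pgd, chr4:149166071-149166095 (minus strand), 3 bases after an internal start: tttgtcatttcagagcTGACATTGC
In Nfe2l2, Gstm5, Me1 and Pgd the capitals read as the core itself, and in Gclm, Prdx1 and Txnrd1 they read as its reverse complement. A match describes the letters of the window and is not a bound site. The 11 members with the core had a median difference of 0.01 on the log2 scale with 6 of 11 higher in cKO, and the 20 members with a window but no core had a median of -0.03 with 8 of 20 higher. Both medians are close to that of all genes. Fth1, Ftl1, Gpx4, Gstp1 and Hmox2 were among those without it, which says only that these letters are not in their windows. Windows of Prdx6, Gclc, Sod3, Gsta4, Abcc1, Hmox1 and Gsr were not used here.

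Neither the factor nor its sensor passed the test. Nfe2l2 (chr2:75675513-75704641, minus strand, GRCm38) was at 20.2, 26.4 and 28.8 FPKM in Ctrl A1, A2 and A8 and at 23.0 to 26.0 FPKM in cKO. The cKO units all lay inside the range of the Ctrl units, and the log2 difference was -0.02 (SE 0.16, 95% interval -0.39 to 0.35, limma adjusted p = 0.99). Its sign turned under upper quartile scaling (0.05) and quantile normalization (0.06). Keap1 (chr9:21229730-21239361, minus strand), the adaptor that hands NRF2 to a ubiquitin ligase, was at 3.62, 4.8 and 2.60 FPKM in Ctrl and at 3.26, 3.82 and 4.69 FPKM in cKO A4, A9 and A10. Its units overlapped as well, with a log2 difference of 0.09 (SE 0.24, interval -0.47 to 0.65, adjusted p = 0.970). Nfe2l2 was several times more abundant than Keap1 in each unit on the per-length FPKM scale.

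Among the 5 genes of heme, quinone and iron handling, both ferritin chains were lower in cKO at an unadjusted p under 0.05, and neither passed the adjustment. Ferritin is the cage protein that stores iron out of reach of peroxides, and its heavy chain oxidizes the iron that enters. Fth1, the heavy chain (chr19:9980598-9985098, plus strand), was at 298.9, 327.6 and 207.2 FPKM in Ctrl A1, A2 and A8 and at 161.5, 154.9 and 210.3 FPKM in cKO A4, A9 and A10. A8 was the low unit of Ctrl and A10 the high unit of cKO, so the groups overlapped. The difference was -0.65 on the log2 scale (SE 0.21, interval -1.14 to -0.16), with an unadjusted limma p of 0.0168 and an adjusted p of 0.506. Without A4 it was -0.59 (adjusted p = 0.952), and without A8 it was -0.84 (adjusted p = 0.143). The unadjusted p was above the threshold without A1 (0.0588), A2 (0.0626), A4 (0.0593) or A9 (0.0635).

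Ftl1, the ferritin light chain (chr7:45457944-45459884, minus strand), was at 34.4, 34.8 and 33.6 FPKM in Ctrl A1, A2 and A8 and at 26.5, 26.3 and 28.7 FPKM in cKO A4, A9 and A10. Here the units did not overlap, nor did the single libraries, of which the lowest Ctrl library had 33.0 FPKM and the highest cKO library 30.1 FPKM. The log2 difference was -0.32 (SE 0.10, interval -0.57 to -0.08), with an unadjusted limma p of 0.0162 and an adjusted p of 0.501. It was -0.31 without A4 and -0.34 without A8, and its unadjusted p was 0.0138 to 0.0488 with any one unit left out. The p passed above the threshold in 5 alternatives, at 0.0609 without a variance trend, 0.0709 with voom on recovered reads, 0.0581 with the 12 libraries and the A number as a random effect, 0.0776 with the replicate block added to that fit, and 0.363 with the marker covariate described below. Processed copies of both genes were measured at low levels, at 0.816 FPKM for Fth1-ps and 0.241 FPKM for Ftl1-ps1, and how the counting divided reads between copies is not given in the sources used here.

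The oligodendrocyte markers were lower in cKO, as were both ferritin genes. Cnp, a myelin enzyme, was at 143.0, 154.3 and 89.5 FPKM in Ctrl A1, A2 and A8 and at 37.0, 39.4 and 64.8 FPKM in cKO A4, A9 and A10. As in Fth1, A8 was the lowest Ctrl unit and A10 the highest cKO unit. That order, with a lower cKO mean, was found in all 12 oligodendrocyte markers and in 9 of 38 members (23.7%), against 11.1% of all genes tested. The 9 members were Fth1, Ftl1, Gstp1, Gpx4, Cat, Gclm, Prdx5, Sod2 and Srxn1. The order was looked for after the values of Fth1 had been seen and Fth1 is counted, so these shares are no test. The order does not ask that A8 lie above the cKO units. A8 did so in the summed markers (1096 against 313 to 753 FPKM) and, among the 9, only in Ftl1 and Gpx4. In Gclm (12.2 against 14.9 to 15.7 FPKM) and Sod2 (5.38 against 6.65 to 7.19 FPKM) A8 lay below every cKO unit. A link between this order and the markers was not tested. With the mean log2 level of the oligodendrocyte markers as a covariate, an alternative added after the data were seen, the difference of Fth1 was 0.13 (SE 0.24, adjusted p = 0.937) and that of Ftl1 was -0.20 (SE 0.21, adjusted p = 0.878). Since the summed marker levels of the genotypes did not overlap, the marker level and the genotype cannot be told apart in 6 units.

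**Figure D3:**
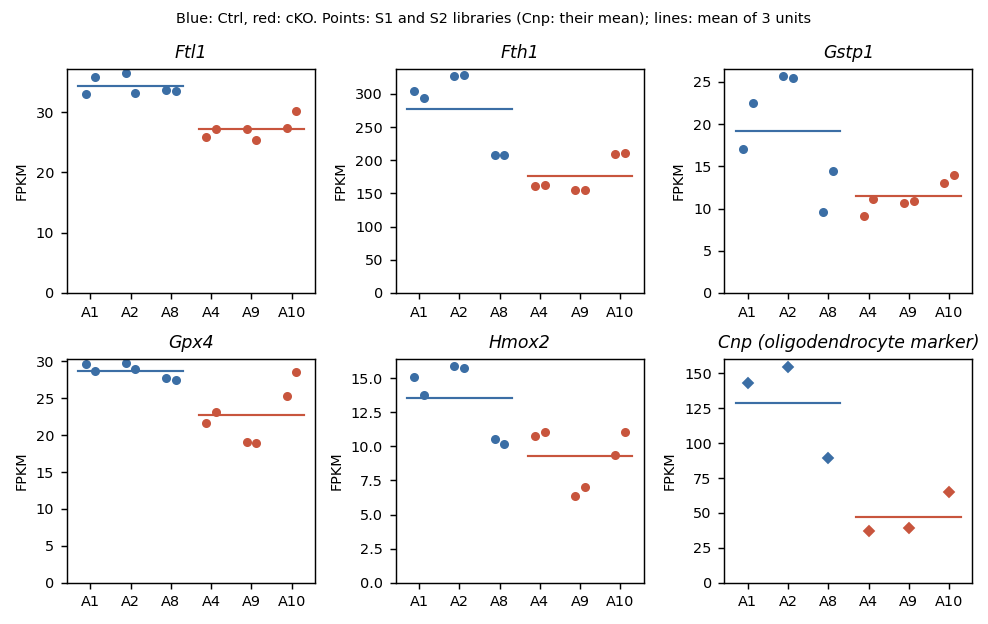
FPKM of 5 members by library (S1 and S2 as separate points for each A number) and of the oligodendrocyte marker Cnp by unit, with horizontal lines at the mean of the 3 units of a genotype (blue Ctrl, red cKO) and axes from 0. In each panel the cKO mean is lower, A8 is the lowest Ctrl unit, and for Fth1, Gstp1 and Hmox2 the units of the genotypes overlap.

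The heme oxygenases open the heme ring and release its iron, Hmox1 as the inducible enzyme and Hmox2 as the constitutive one. The mean of Hmox2 was 13.5 ± 2.83 FPKM in Ctrl against 9.26 ± 2.26 FPKM in cKO (SD, n = 3 each), a log2 difference of -0.51 (SE 0.23, adjusted p = 0.684), which was -0.31 without A9 and -0.08 with the oligodendrocyte covariate (adjusted p = 0.982). That of Hmox1 was 1.94 ± 0.707 FPKM in Ctrl against 3.18 ± 1.48 FPKM in cKO, a log2 difference of 0.47 (SE 0.36, adjusted p = 0.853), which was 0.79 without A9 (adjusted p = 0.972), 0.28 without A8 and 0.25 without A10. Units overlapped for both genes taken singly. The log2 ratio of Hmox2 to Hmox1 was 2.88, 2.58 and 3.07 in Ctrl A1, A2 and A8 and 1.58, 2.13 and 1.22 in cKO A4, A9 and A10. The units of this ratio did not overlap between genotypes, which was so for 1 of 6 isozyme ratios examined and for 13.0% of single genes, and it is given as a description with no test. Hmox2 exceeded Hmox1 by 2.33-fold to 8.41-fold in each of the 6 units. Nqo1, the quinone reductase often used as a readout of NRF2, had a mean of 3.34 ± 0.556 FPKM in Ctrl against 5.30 ± 1.85 FPKM in cKO. Its A4 and A9 units were high and its A10 unit lay among the Ctrl units, and the difference of 0.50 (SE 0.27, adjusted p = 0.752) was 0.78 without A10 and did not pass either way.

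Of the 6 genes of glutathione synthesis and recycling, 0 passed, and 5 of 6 differences were negative, of which those of Cbs and Gss turned positive under upper quartile scaling and those of Cbs and Gclm under quantile normalization. Slc7a11, the light chain of the exchanger that brings in cystine for glutathione, was the most abundant of them. It was at 44.2, 44.3 and 49.3 FPKM in Ctrl A1, A2 and A8 and at 48.2, 65.9 and 44.4 FPKM in cKO A4, A9 and A10. A9 stood above the other 5 units, which lay close together, and the log2 difference of 0.18 (SE 0.16, adjusted p = 0.882) was 0.01 without A9 and 0.29 without A10. Gsr, which returns oxidized glutathione to its reduced form with NADPH, was at 10.3, 11.6 and 16.2 FPKM in Ctrl and at 9.37, 10.5 and 10.4 FPKM in cKO A4, A9 and A10. The high unit was A8, and the difference of -0.28 (SE 0.18, adjusted p = 0.824) was -0.11 without it.

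Glutamate-cysteine ligase makes the first and limiting step of glutathione synthesis from a catalytic chain, Gclc, and a modifier chain, Gclm. The mean of Gclc was 18.9 ± 6.27 FPKM in Ctrl against 17.0 ± 3.75 FPKM in cKO. For Gclm it was 16.4 ± 4.0 against 15.2 ± 0.413 FPKM. The log2 ratio of the 2 chains lay between -0.24 and 0.36 in the 6 units, so their transcripts were close to equal on the per-length scale. Gss, the synthetase of the second step, was near 4 FPKM in both groups (4.32 ± 0.430 and 4.16 ± 0.656 FPKM). Cbs, which starts the route from homocysteine to cysteine, averaged 24.8 ± 5.88 and 24.5 ± 2.99 FPKM, with a difference of 0.00 (interval -0.46 to 0.46).

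The transferases couple glutathione to electrophiles, and the ABCC pumps carry conjugates out of the cell. In this group of 6, 0 passed and 5 of 6 differences were positive. Gstm1 (chr3:108012255-108017973, minus strand) was at 329.9, 418.9 and 492.0 FPKM in Ctrl A1, A2 and A8 and at 421.3 to 448.3 FPKM in cKO. The cKO units lay inside the Ctrl range, with a log2 difference of 0.08 (SE 0.16, adjusted p = 0.962). Gstm1 exceeded Gstm5 by 1.79-fold to 2.90-fold in the 6 units, and Gstm5 had a mean of 176.9 ± 35.7 FPKM in Ctrl against 212.2 ± 29.0 FPKM in cKO (difference 0.27, SE 0.18, adjusted p = 0.827). The Gstm5 difference was 0.42 without A8 and 0.14 without A2. The mu class genes are alike in sequence, and their division of reads is uncertain.

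Gstp1, the pi class transferase (chr19:4035407-4037985, minus strand), went the other way. It was at 19.8, 25.6 and 12.03 FPKM in Ctrl A1, A2 and A8 and at 10.1, 10.8 and 13.5 FPKM in cKO A4, A9 and A10. A1 and A2 were high, and A8 fell among the cKO units. The difference was -0.63 (SE 0.28, interval -1.28 to 0.02), with an adjusted p of 0.661. It was -0.55 without A4, -0.39 without A2 and -0.92 without A8 (adjusted p = 0.149), and 0.35 with the oligodendrocyte covariate. Its pseudogene Gstp-ps was listed at 5.73 FPKM, so reads may have been shared. Gsta4, an alpha class transferase for lipid aldehydes, averaged 24.2 ± 4.8 and 26.8 ± 2.77 FPKM in Ctrl and cKO. Abcc1 averaged 2.04 ± 0.687 and 2.83 ± 0.142 FPKM, and Abcc4 averaged 4.81 ± 0.997 and 5.27 ± 0.426 FPKM, with overlapping units in each case.

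Peroxides are removed by catalase, the glutathione peroxidases and the peroxiredoxins. Among these 8 genes, 0 passed, and all 8 intervals lay within 2-fold in FPKM. Gpx4, which reduces lipid peroxides in membranes and so holds off ferroptosis (chr10:80047166-80056439, plus strand), was at 29.2, 29.3 and 27.6 FPKM in Ctrl A1, A2 and A8 and at 22.4, 19.0 and 26.9 FPKM in cKO A4, A9 and A10. The units did not overlap, although A10 came close to A8, and 1 library of A10 (28.5 FPKM) lay above both of A8. The difference was -0.33 (SE 0.15, interval -0.68 to 0.01, adjusted p = 0.669), which was -0.22 without A9 and -0.03 with the oligodendrocyte covariate. Its pseudogenes were listed at 16.2 FPKM for Gpx4-ps2 and 3.36 FPKM for Gpx4-ps1, so the division of reads is uncertain. Gpx1, the soluble glutathione peroxidase, was lower than Gpx4 by 3.25-fold to 5.25-fold in the 6 units and averaged 6.50 ± 1.36 and 6.36 ± 1.60 FPKM in Ctrl and cKO.

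Prdx6, a peroxiredoxin that uses glutathione and also cleaves phospholipids, was at 95.6, 121.3 and 112.2 FPKM in Ctrl A1, A2 and A8 and at 115.5, 116.5 and 123.3 FPKM in cKO A4, A9 and A10. A1 was the low unit and the others lay together, with a difference of 0.12 (SE 0.12, interval -0.17 to 0.40, adjusted p = 0.899). Prdx1, the cytosolic peroxiredoxin, had 1 of the tightest intervals of the list, with a difference of 0.04 (interval -0.20 to 0.27) between 63.1 ± 1.89 and 64.7 ± 3.94 FPKM. Cat, the peroxisomal catalase, averaged 47.4 ± 4.75 and 44.3 ± 2.68 FPKM. Prdx2 (19.3 ± 4.73 and 18.7 ± 1.52 FPKM), the mitochondrial Prdx3 (24.2 ± 5.30 and 25.1 ± 3.36 FPKM) and Prdx5 (14.8 ± 2.08 and 13.3 ± 2.0 FPKM) had overlapping units.

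The superoxide dismutases turn superoxide into peroxide in the cytosol (Sod1), the mitochondrial matrix (Sod2) and outside the cell (Sod3), and 0 of the 3 passed. Sod1 was at 36.0, 35.3 and 19.0 FPKM in Ctrl A1, A2 and A8 and at 31.6, 25.3 and 22.0 FPKM in cKO A4, A9 and A10. A8 was the lowest of all 6 units and A1 and A2 the highest, so the spread inside Ctrl exceeded the difference of -0.15 (SE 0.27, adjusted p = 0.957). Sod3 was at 9.42, 5.96 and 6.58 FPKM in Ctrl and at 8.26, 9.61 and 9.88 FPKM in cKO A4, A9 and A10. Its A1 unit lay among the cKO units, and the difference of 0.32 (SE 0.19, adjusted p = 0.788) was 0.50 without A1 and 0.20 without A2. Sod2 averaged 7.32 ± 1.68 and 7.0 ± 0.302 FPKM, and Sod1 exceeded it by 3.06-fold to 4.42-fold in the 6 units.

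The thioredoxin system reduces protein disulfides and the peroxiredoxins, with electrons from NADPH through its reductases. Txn1, thioredoxin itself, was at 10.4, 16.5 and 14.5 FPKM in Ctrl A1, A2 and A8 and at 18.5, 12.2 and 14.6 FPKM in cKO A4, A9 and A10. The units were interleaved (difference 0.13, SE 0.22, adjusted p = 0.951). Glrx, a glutaredoxin that removes glutathione from proteins, was at 1.56, 2.28 and 1.66 FPKM in Ctrl and at 1.89, 3.28 and 2.01 FPKM in cKO A4, A9 and A10. A9 stood out as high, and the difference of 0.24 (SE 0.26, adjusted p = 0.909) was 0.06 without A9. Txnrd1, the cytosolic reductase, averaged 4.8 ± 1.43 and 4.42 ± 0.940 FPKM, and Txnrd2, the mitochondrial one, 1.58 ± 0.495 and 1.66 ± 0.773 FPKM. Srxn1, which repairs overoxidized peroxiredoxins, averaged 5.09 ± 0.878 and 4.52 ± 0.970 FPKM. The 5 genes split into 3 positive and 2 negative differences, with 0 past the threshold, and the sign of Txnrd2 turned under quantile normalization.

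The 3 enzymes of NADPH supply had positive differences, with 0 past the threshold. Pgd, of the pentose phosphate pathway (chr4:149149991-149166771, minus strand), was at 3.33, 3.34 and 2.80 FPKM in Ctrl A1, A2 and A8 and at 4.31, 4.63 and 3.94 FPKM in cKO A4, A9 and A10. Every cKO unit and every cKO library lay above Ctrl, with a difference of 0.35 (SE 0.17, interval -0.06 to 0.76) and an adjusted p of 0.719. It was 0.35 without A4 and 0.29 without A8. G6pdx, which opens that pathway, averaged 14.0 ± 0.452 and 14.1 ± 1.31 FPKM, a difference of 0.01 (interval -0.29 to 0.31). Me1, the cytosolic malic enzyme, was at 15.1, 23.6 and 23.2 FPKM in Ctrl and at 25.2, 21.4 and 19.9 FPKM in cKO A4, A9 and A10. Its low unit was A1, and the difference of 0.12 (SE 0.20, adjusted p = 0.950) was -0.08 without it.

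**Figure D4:**
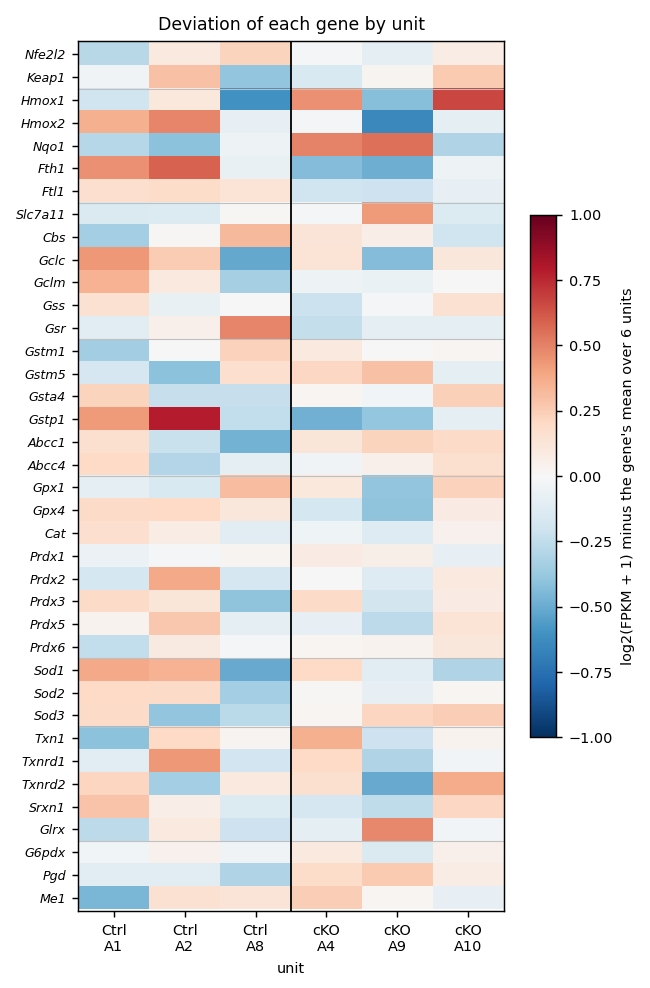
Deviation of each member in each unit from its mean over the 6 units, on the log2(FPKM + 1) scale (red above, blue below), with a line between Ctrl and cKO. Rows of a role have differences of both signs between genotypes, except in NADPH supply, where all 3 are positive. A9 has the lowest value of 11 of the 38 members (17.7% of all genes tested), A1 and A8 of 9 each (17.3% and 26.1% of all genes).

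A wider list of 86 genes of the same pathways was read from the same fit. Of its 69 tested genes, 0 had an adjusted limma p under 0.05 and 4 had an unadjusted p under 0.05 (5.80%, against 7.69% of all genes), 1 higher and 3 lower in cKO. The median difference was -0.01, with 32 positive and 37 negative. Idh2, the mitochondrial isocitrate dehydrogenase that makes NADPH, was at 28.2, 27.0 and 28.0 FPKM in Ctrl and at 34.4, 35.9 and 33.9 FPKM in cKO A4, A9 and A10. These units did not overlap, and the difference was 0.32 (SE 0.10, adjusted p = 0.505). Chac2, which breaks glutathione down, had the next smallest p among positive differences (0.61, SE 0.31, adjusted p = 0.735). For Slc3a2, the heavy chain that partners the Slc7a11 protein, the difference was 0.20 (SE 0.11, adjusted p = 0.764). In the wider list the units did not overlap for Idh2, Slc3a2 and Blvrb, higher in cKO, and Oxr1, Akr1a1, Gstm7 and Blvra, lower in cKO. Among all genes tested this was so for 13.0%.

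On the lower side of that list, Oxr1, an oxidation resistance gene, was at 14.1, 14.1 and 13.0 FPKM in Ctrl and at 9.07, 10.6 and 10.8 FPKM in cKO A4, A9 and A10, without overlap (difference -0.40, SE 0.13, adjusted p = 0.519). Akr1a1, an aldehyde reductase, had a mean of 19.1 ± 3.13 FPKM in Ctrl against 14.0 ± 0.746 FPKM in cKO (difference -0.40, SE 0.15, adjusted p = 0.607). Gstm7, a further mu class transferase, was at 11.4, 7.04 and 3.83 FPKM in Ctrl A1, A2 and A8 and at 3.24, 3.45 and 3.38 FPKM in cKO. A8 lay close to the cKO units and A1 far above them, and the difference was -0.85 (SE 0.33, adjusted p = 0.621).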

How the data were processed

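FPKM values per gene were deposited by the authors for 12 libraries. Multiplied by gene length in kilobases, those of any library add up to 1000000. Per the submitters' processing notes, FastQC, STAR, featureCounts, DESeq2 and mm10/GRCm38 were used, with no roles or versions. The table gave the same start and end as GENCODE M21 (GRCm38) for 1 of 38 members, so coordinates were taken by identifier from that annotation. Rows sharing a symbol were summed. Genes with a mean of at least 1 FPKM were tested with limma 3.58.1 in R 4.3.3 (variance trend) on log2(FPKM + 1), which understates changes of low genes, after averaging S1 and S2 on that scale. The threshold was 0.05. Reads were recovered from FPKM steps (82.8% to 86.3% of genes whole within 0.02), and voom on them called 0 genes. The protocol in the labels names no molecular identifiers, so read numbers are not numbers of molecules.

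Values are given in full for Nfe2l2, Keap1, the member of each role with the smallest p, the most abundant one, isozyme ratios, Cnp and the 3 other pathway genes with the smallest p in each direction. No member fell below the filter, so the exact test planned for such members was not needed. The members and gene lists were chosen with earlier results of these data known. The fit was also run on simulated data. Their noise was independent between genes, with a spread set by a formula and not that of these units. That run therefore does not show how the fit performs on these data. Alternatives changed the pseudocount, filter, scaling, variance model, libraries and unit of replication.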

Additional observations from a re-analysis of the deposited data

How the results depend on the processing

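No member had a limma adjusted p under 0.05 in any of the 19 alternatives, and the lowest such value was 0.0876, for Fth1 with the 12 libraries and the A number as a random effect. That fit called 112 genes and the same fit with a replicate block 80 genes, where 0 were called in the other fits except 1 without A1. With the replicate block, Fth1 had an adjusted p of 0.114. S numbers pair libraries of 1 A number and pair no Ctrl with a cKO unit. Members with an unadjusted p under 0.05 numbered 5 in the S1 libraries (13.2%, against 7.46% of all genes at that setting), 1 without a variance trend (2.63%, against 7.43%), 1 with the replicate block (against 8.48%) and 0 with the oligodendrocyte covariate (against 5.75%). They numbered 1 to 6 with each unit left out in turn, the 6 being reached without A8 (15.8%, against 13.9%). With that covariate Fth1 and Gstp1 turned to 0.13 and 0.35. The cause was not tested.

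Of 646 member values read under alternatives, 55 had the other direction, in 19 members. From the oligodendrocyte covariate and voom fits, this count read only Ftl1, Fth1, Gstp1, Gpx4 and Hmox2. Over all 38 members the covariate fit gave 24 positive and 14 negative differences, and voom 18 and 20. Further turns of direction in those fits are thus not in the count. Under upper quartile scaling Nfe2l2 was 0.053, Cbs 0.074, Gss 0.019, Gpx1 0.032, Prdx2 0.053 and Sod2 0.034. Under quantile normalization Nfe2l2 was 0.065, Cbs 0.091, Gclm 0.0032, Gpx1 0.027, Prdx2 0.065, Sod2 0.030 and Txnrd2 -5.3e-05. In the S1 libraries Cbs was 0.00025, Gss 0.0024 and Gpx1 0.035, and in the S2 libraries Nfe2l2 was 0.039 and G6pdx -0.039. With each unit left out in turn, differences ran from -0.17 to 0.081 for Nfe2l2, -0.082 to 0.26 for Keap1, -0.17 to 0.16 for Cbs, -0.41 to 0.069 for Gclc, -0.26 to 0.079 for Gclm, -0.13 to 0.051 for Gss, -0.072 to 0.22 for Gstm1, -0.16 to 0.15 for Gpx1, -0.12 to 0.16 for Prdx2 and -0.12 to 0.17 for Prdx3. They ran from -0.44 to 0.0040 for Sod1, -0.22 to 0.057 for Sod2, -0.047 to 0.26 for Txn1, -0.21 to 0.11 for Txnrd1, -0.16 to 0.27 for Txnrd2, -0.041 to 0.081 for G6pdx and -0.081 to 0.22 for Me1.

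Depth was lowest for Hmox1 and Txnrd2, with 41 and 59 reads in their lowest libraries. Where a unit is left out, 2 remain in its group, and the spread is drawn toward that of other genes, as in every fit.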
